A study of Mus musculus with 8 samples.

Results

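The miR-148 and miR-152 family is a set of microRNAs (miRNAs), short RNAs that repress messenger RNAs, whose guide strands share their seed. It was taken by name from a table of small RNA counts of splenic CD8+ T cells, and 4 of the 1978 mature miRNAs in that table were members: mmu-miR-148a-3p, mmu-miR-148a-5p, mmu-miR-148b-3p and mmu-miR-152-3p (the species prefix is left out below). The libraries came from C57BL/6 mice, an inbred laboratory strain, in 2 age groups without any other treatment in the labels: neonatal mice of 5 to 7 days (4 libraries) and adult mice of 12 weeks (4 libraries). Cells had been enriched from spleen with magnetic beads against CD8a, and the labels do not say whether a library held cells of 1 animal or of several. P-values and errors therefore measure the spread between these libraries, which may be technical. The members were chosen with results of the same comparison known, so their differences between the ages are given as a description, without p-values.

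A miRNA hairpin is cut into 2 arms. One arm, the guide strand, is loaded into an Argonaute protein and pairs with target messenger RNAs through its seed, bases 2 to 8, while the other arm is mostly degraded. In this family the 3p arms are the guides. miR-148a and miR-152 are known to repress Dnmt1, the methyltransferase that copies DNA methylation to the new strand at replication. miR-148a is also known in lymphocytes for repressing the pro-apoptotic protein Bim (gene Bcl2l11) and the stress-response gene Gadd45a, and it is an abundant miRNA of liver.

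The guide strands are shown first, 5′ to 3′ with the seed in capitals, because the family is defined by this seed and the members differ only downstream of it. They were taken from RefSeq (build GRCm38.p6), where all 6 arms of the 3 hairpins were found.
miR-148a-3p: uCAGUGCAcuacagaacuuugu
miR-148b-3p: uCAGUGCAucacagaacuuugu
miR-152-3p: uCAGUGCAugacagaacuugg
Counted from the 5′ end, miR-148a-3p and miR-148b-3p differ at 2 of 22 positions (C9U and U10C, the base of miR-148a-3p first). miR-148b-3p and miR-152-3p differ at 2 of the 21 positions they share (C10G and U20G, the base of miR-148b-3p first), and miR-148a-3p and miR-152-3p at 3. Of 1679 mouse mature miRNAs in the RefSeq table, these 3 alone had CAGUGCA at positions 2 to 8. The same 7 bases stood at positions 1 to 7 of 7 others, among them the miR-130 and miR-301 family, shown here with positions 1 to 7 in capitals for comparison with the guides above.
miR-130b-3p: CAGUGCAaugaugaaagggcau
miR-301a-3p: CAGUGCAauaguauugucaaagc

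The hairpins are shown with both mature arms in capitals, since the 2 arms of a hairpin are compared below.
Mir148a: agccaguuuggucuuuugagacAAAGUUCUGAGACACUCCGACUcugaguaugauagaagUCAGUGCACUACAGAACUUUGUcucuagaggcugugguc
Mir148b: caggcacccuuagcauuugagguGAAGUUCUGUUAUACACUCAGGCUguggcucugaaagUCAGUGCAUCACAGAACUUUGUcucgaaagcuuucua
Mir152: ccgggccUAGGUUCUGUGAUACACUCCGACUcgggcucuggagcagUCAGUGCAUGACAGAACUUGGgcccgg
Mir148a lies at chr6:51269812-51269910 on the minus strand and overlaps no other gene of GENCODE M21, the nearest protein-coding gene being Nfe2l3 at 162760 bases. Mir148b (chr15:103285125-103285221, plus strand) and Mir152 (chr11:96850393-96850465, plus strand) lie in introns of the paralogous genes Copz1 and Copz2, which encode zeta subunits of the coatomer coat of transport vesicles and run on the same strand. The 3 guides are thus made from separate loci. The 5p arms of miR-148a and miR-148b share the bases AAGUUCU at positions 2 to 8, while that of miR-152 has AGGUUCU.

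Matches to the shared seed were found in the 3′ untranslated regions of the 3 messenger RNAs named above (GENCODE M21, the transcript with the longest such region per gene). One per gene is shown in DNA letters on the messenger's strand, with the 7 bases complementary to the seed (TGCACTG) in capitals.
Dnmt1, chr9:20907481-20907510, minus strand: cagagccccacgTGCACTGatgtttttaac
Gadd45a, chr6:67035610-67035639, minus strand: actgaaccaaatTGCACTGaagttttgaaa
Bcl2l11, chr2:128162397-128162426, plus strand: tcctttacgtttTGCACTGatgaattttga
Dnmt1 and Gadd45a had 1 match each, and Bcl2l11 had 3. Among regions within 20% of the same length, such a match was found in 3.0% for Dnmt1, 6.5% for Gadd45a and 32.4% for Bcl2l11. Over all 20987 genes with such a region the share was 12.6%. The matches shown for Gadd45a and Bcl2l11 are preceded by T, which makes them complementary to positions 2 to 8 of miR-130b-3p and miR-301a-3p as well. A match describes the letters only, and no messenger RNA was measured in these libraries.

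Library totals ran from 1281033 to 2606637 counts, with 615 to 795 miRNAs detected in each. Levels below are depth-scaled counts (CPM) corrected with TMM, a trimmed mean of the ratios between libraries. TMM factors lay between 1.16 and 1.30 for the neonatal group and between 0.79 and 0.81 for the adult group, and scaling by totals alone raised the log2 fold changes by 0.63 (median shift), and RLE size factors by 0.12. Small RNA ligation has sequence preferences, so levels of different miRNAs are not strictly comparable within a library, while each can be compared between libraries. In a bulk library, fewer cells of a type and less RNA per cell cannot be told apart. Of the 5 miRNAs listed for T cells, none was at 0. miR-150-5p stood at 140507 ± 37921 CPM in adult libraries and 54314 ± 2743 CPM in neonatal libraries (SD, n = 4 each). Whether these 5 miRNAs tell T cells from other blood cells was not tested. Of these 5, 4 were called lower in neonatal libraries, beside 34.1% of all tested miRNAs. With library totals 2 were lower and 1 higher, beside 68 lower and 186 higher over all tested miRNAs. A difference in T cell content is not read from these counts. The table holds miRNAs only, so Cd8a itself was not measured here.

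miR-148a-3p was the member that differed most among the guides. Its level was 792, 1060, 679 and 938 CPM in adult libraries 1 to 4, and 4273, 4639, 4266 and 5415 CPM in neonatal libraries 1 to 4. The lowest neonatal library was thus above the highest adult one, with 867 ± 167 CPM in adult and 4648 ± 540 CPM in neonatal libraries (SD, n = 4 each). In the fit across all miRNAs the log2 fold change, neonatal over adult, was 2.42 ± 0.17 (SE), a 5.36-fold difference. By mean CPM it stood in place 87 of 846 miRNAs with a count in adult libraries and in place 29 of 966 in neonatal ones. Its counts, 816 to 1869 in adult and 8009 to 15142 in neonatal libraries, leave counting error small beside the spread between libraries.

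miR-148b-3p, with the same seed, differed far less. It stood at 2160, 2605, 2174 and 2662 CPM in adult libraries 1 to 4 and at 2936, 3222, 2821 and 3596 CPM in neonatal libraries 1 to 4. The groups did not overlap, but the gap between the highest adult and the lowest neonatal library was small, and the means were 2400 ± 271 and 3144 ± 346 CPM (SD, n = 4 each). The log2 fold change was 0.39 ± 0.14 (SE), or 1.31-fold. It no longer passed the threshold without adult library 1 (0.30 ± 0.15) or without adult library 3 (0.37 ± 0.15), the adult libraries with the lowest levels.

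miR-152-3p was rare in both ages. It had 8.33, 14.5, 4.5 and 30.67 counts in adult libraries 1 to 4 and 29, 42, 29 and 49.33 counts in neonatal libraries 1 to 4. On the CPM scale the adult libraries held 7.77, 9.80, 1.90 and 15.6, and the neonatal libraries 15.5, 16.0, 12.6 and 17.5. Adult library 4 lay within the neonatal range and adult library 3 lay far below all others, so the groups overlapped, with 8.76 ± 5.64 and 15.4 ± 2.04 CPM (SD, n = 4 each). The log2 fold change of 0.82 ± 0.42 (SE) did not pass the threshold, while with the replicate number as a block it did (0.90 ± 0.33). With the block and a GC offset together it again did not (0.80 ± 0.36). Without adult library 4 it was 1.38 ± 0.45 and passed, and without adult library 3 it was 0.45 (the lowest value) and did not.

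miR-148a-5p, the passenger arm of miR-148a, was near the detection limit in adult cells. It had 2, 2, 4 and 5 counts in adult libraries 1 to 4 and 22, 55, 29 and 63 counts in neonatal libraries 1 to 4. The adult libraries stood at 1.94 ± 0.45 CPM and the neonatal ones at 16.97 ± 5.57 CPM (SD, n = 4 each), with no overlap. The log2 fold change was 3.08 ± 0.38 (SE). From the summed counts, 169 neonatal and 13 adult, the ratio on the TMM scale was 8.89 with an exact 95% interval of 5.06 to 17.04. The interval covers counting error only, and reads that carry no molecular identifier are not independent molecules.

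**Figure D1:**
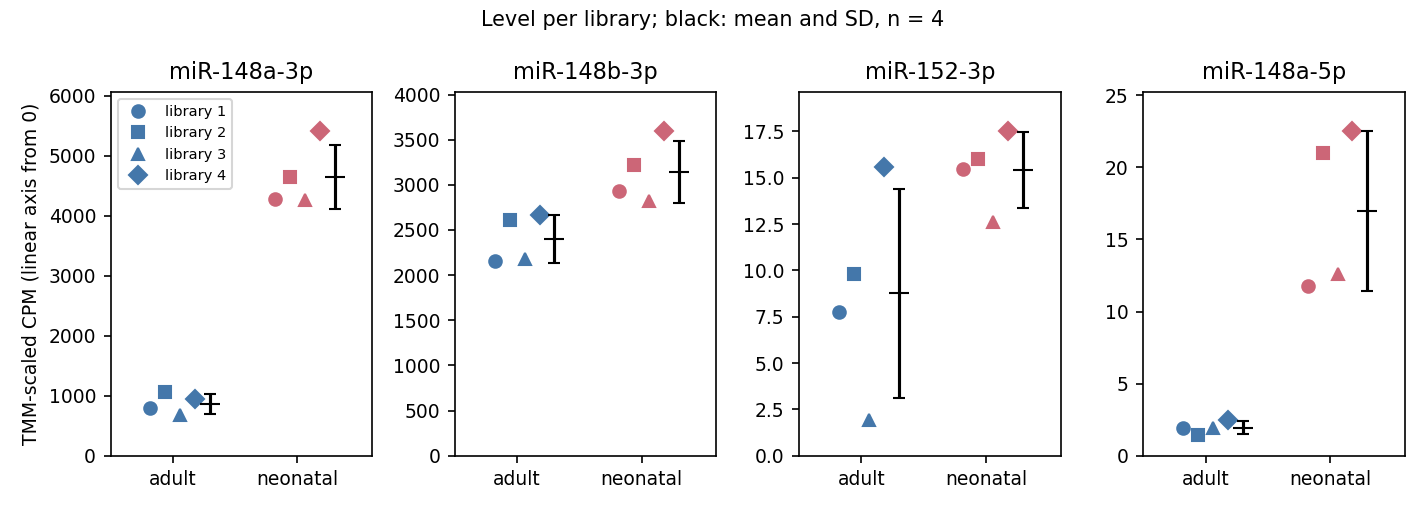
TMM-scaled CPM of each member per library, on linear axes that start at 0 and differ between panels. Symbols are libraries 1 to 4, and black marks are mean and SD. miR-148a-3p and miR-148a-5p are far apart between the ages, miR-148b-3p is narrowly apart (up to 2662 CPM in adult and from 2821 CPM in neonatal libraries), and miR-152-3p overlaps.

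Counted together, 3 of the 4 members passed edgeR's threshold (Benjamini-Hochberg adjusted p under 0.05), all as higher in neonatal libraries. Of all miRNAs tested, 29.1% were called higher and 34.1% lower (63.2% in either direction), and the median log2 fold change was -0.05. Groups did not overlap, with the neonatal one higher, for 3 of 4 members and for 26.4% of all tested. Nothing is read from these counts, since the members were chosen in view of them. All 4 members passed the filter on low counts, which asked for 5.09 CPM before TMM scaling in 4 libraries. miR-148a-5p did so through the neonatal libraries alone (0 adult and 4 neonatal ones reached it), so that it had to differ. For miR-152-3p it was 3 adult and 4 neonatal libraries.

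Scaling by library totals in place of TMM moved all 4 members up. The log2 fold change was then 3.05 for miR-148a-3p, 3.69 for miR-148a-5p, 1.02 for miR-148b-3p and 1.44 for miR-152-3p, which then passed. With totals 73.2% of all called miRNAs were higher in neonatal libraries, against 46.0% with TMM.

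**Figure D2:**
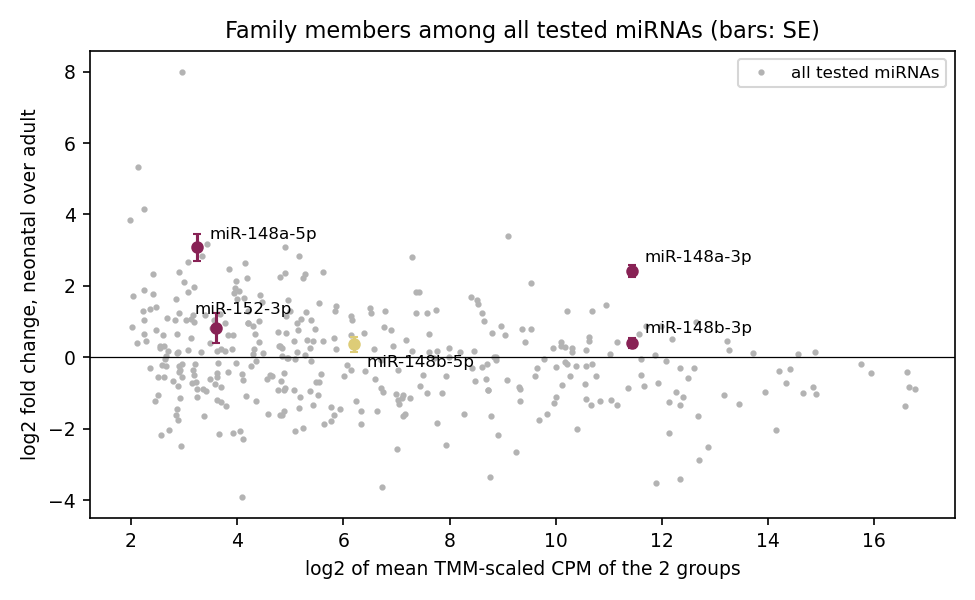
Log2 fold change, neonatal over adult, against the log2 of the mean level of the 2 groups (TMM-scaled CPM) for all tested miRNAs in grey, with the family's arms marked and bars for SE. miR-148a-3p (2.42) and miR-148b-3p (0.39) lie at almost the same mean level and at different heights, and miR-148a-5p (3.08) lies among the rare miRNAs. The grey point near 8 is miR-301b-3p, which had no adult count, so its fitted value depends on the prior count.

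The make-up of the family, which does not depend on how libraries are scaled, differed between the ages. miR-148a-3p took 26.8%, 28.9%, 23.8% and 25.9% of the summed counts of the 3 guides in adult libraries 1 to 4. In neonatal libraries 1 to 4 it took 59.2%, 58.9%, 60.1% and 60.0%. The shares spanned about 1 percentage point among neonatal libraries and 5 among adult ones, and the groups were wide apart, at 26.3% ± 2.09 and 59.5% ± 0.593 (SD, n = 4 each). miR-148b-3p, the guide with most counts in adult cells, went the other way, with 73.4% ± 2.17 in adult and 40.3% ± 0.581 in neonatal libraries. miR-152-3p held 0.263% ± 0.144 in adult and 0.198% ± 0.0153 in neonatal libraries, with overlap.

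Expressed as a ratio of counts, miR-148a-3p to miR-148b-3p was 0.367, 0.407, 0.312 and 0.352 in adult libraries 1 to 4. The ratio was 1.46, 1.44, 1.51 and 1.51 in neonatal libraries 1 to 4. Every adult library thus had fewer counts of miR-148a-3p than of miR-148b-3p, and every neonatal library had more, with mean ratios that differed 4.11-fold. Because ligation preferences act on each sequence, the ratio itself is not a ratio of molecules. The 4 members together made up 0.263% ± 0.0333 of all counts in adult and 0.970% ± 0.0568 in neonatal libraries (SD, n = 4 each), shares of unscaled totals.

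**Figure D3:**
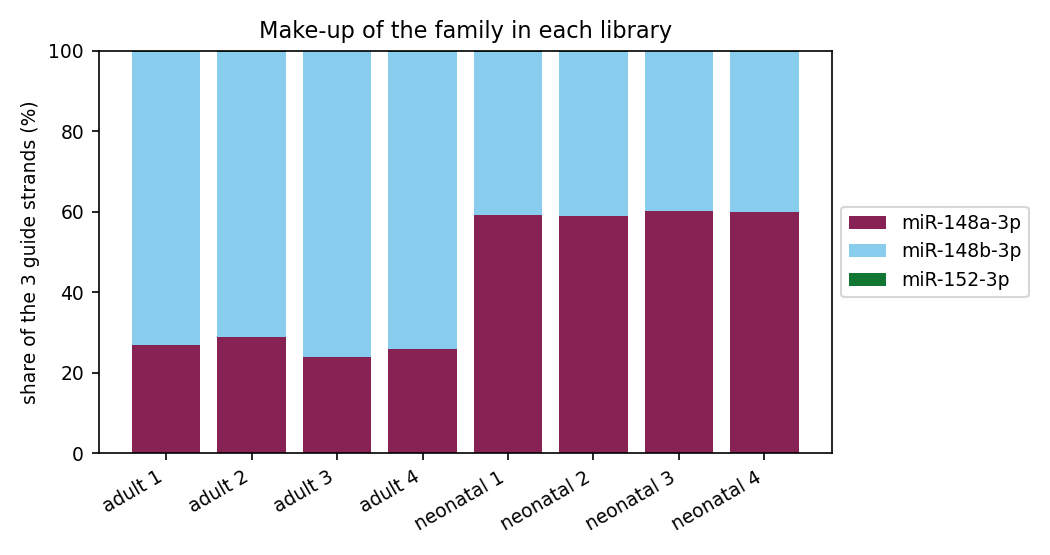
Share of the summed counts of miR-148a-3p, miR-148b-3p and miR-152-3p taken by each, in percent, as stacked bars for the 8 libraries. miR-148a-3p takes 23.8% to 28.9% in the adult and 58.9% to 60.1% in the neonatal libraries, and miR-152-3p is too rare to be seen.

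The deposited counts of the guides were not all whole numbers. miR-148a-3p and miR-148b-3p had a fractional part in 6 of 8 libraries each and miR-152-3p in 5, while the 5p arms had none. In 5 libraries the fractional part was the same non-zero value for miR-148a-3p and miR-148b-3p. Such fractions arise when a read is divided among several places, so some reads could not be assigned to 1 guide. How many cannot be read from the fractions.

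The ratio of passenger to guide arm overlapped between the ages for both hairpins where it could be measured. For every 1000 counts of miR-148a-3p there were 2.45, 1.32, 2.80 and 2.68 counts of miR-148a-5p in adult libraries 1 to 4 and 2.75, 4.52, 2.96 and 4.16 in neonatal libraries 1 to 4. The ranges overlapped, at 2.31 ± 0.677 and 3.60 ± 0.876 (SD, n = 4 each), and the adult values rest on 2 to 5 counts. Within same-numbered pairs the value was higher in the neonatal library in all 4, by little in pairs 1 and 3. On the log2 scale the arm ratio was -8.58 ± 0.45 in adult and -8.13 ± 0.35 in neonatal libraries. miR-148b-5p, the passenger arm of miR-148b, was counted 26.6 ± 4.58 times per 1000 guide counts in adult and 26.0 ± 1.62 times in neonatal libraries, so that both ages overlapped there too. Its own level was 64.0 ± 14.2 CPM in adult and 82.2 ± 13.2 CPM in neonatal libraries, with a log2 fold change of 0.36 ± 0.21 (SE) that did not pass the threshold. It was called higher with library totals (0.99), DESeq2 (0.47), the GC offset (0.58, and 0.60 together with the replicate block) and without adult library 2 (0.55). miR-152-5p had no count in any of the 8 libraries, which allows a level of up to 1.07 to 2.91 CPM per library (3 counts, counting error only).

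Libraries of the same number went together in part. In both ages, libraries 2 and 4 held more miR-148a-3p and more miR-148b-3p than libraries 1 and 3. What the numbers mean is not given in the labels. Within same-numbered pairs, miR-148a-3p was 5.39, 4.37, 6.28 and 5.77 times higher in the neonatal library of pairs 1 to 4, and miR-148b-3p 1.36, 1.24, 1.30 and 1.35 times. The direction was the same in all 4 pairs for both, as it would be in any pairing, since the groups did not overlap. For miR-152-3p the pairs gave 1.99, 1.64, 6.64 and 1.13, the third of which rests on the 4.5 counts of adult library 3.

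**Figure D4:**
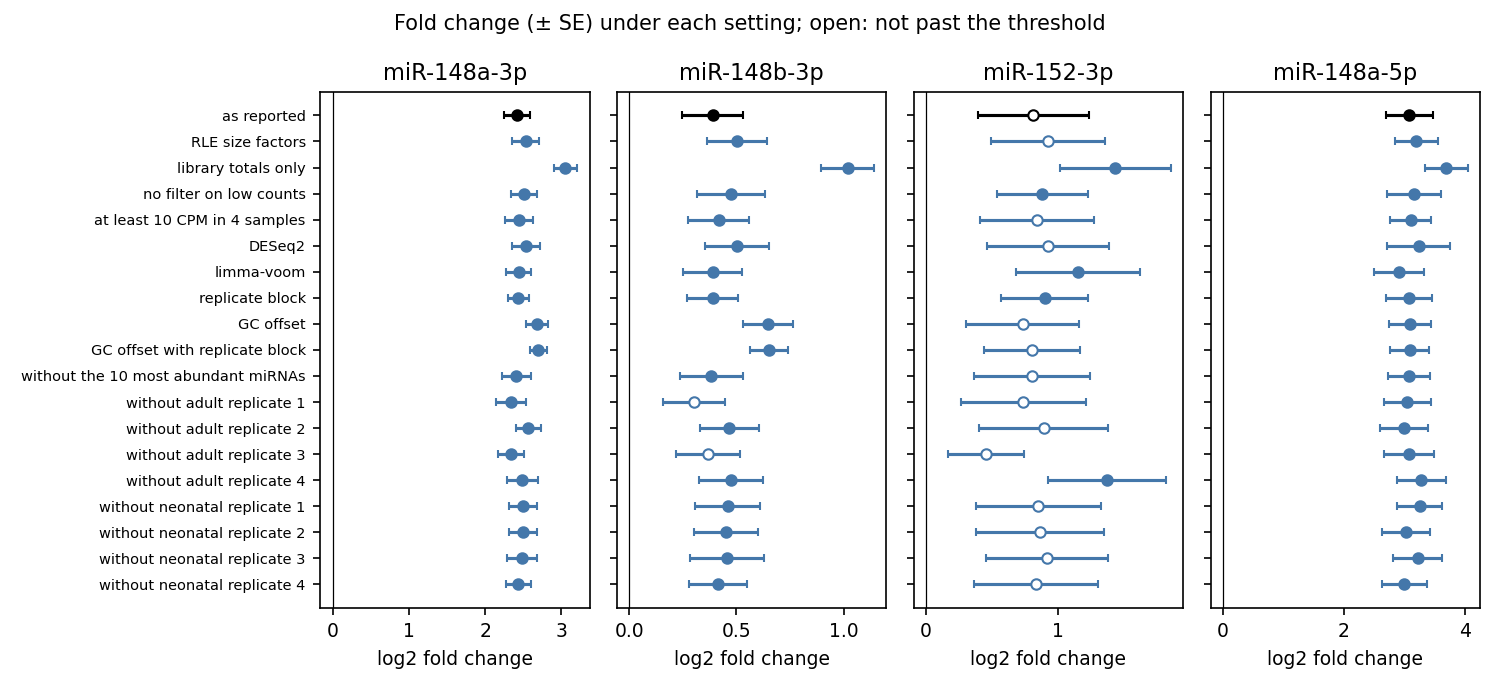
Log2 fold change, neonatal over adult, with SE for each member under every setting tried (rows), with filled points past the threshold and open points not. The horizontal scale differs between panels. miR-148a-3p stays between 2.33 and 3.05 and miR-148a-5p between 2.91 and 3.69, while the calls of miR-148b-3p and miR-152-3p move with single adult libraries.

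The miRNAs whose pattern over the 8 libraries came closest to each guide were sought outside the family. Likeness was the root mean square difference of log2(CPM + 1), after subtracting each miRNA's mean, and all 8 libraries entered. For miR-148a-3p the closest of 370 miRNAs were miR-18b-3p (0.25), miR-3080-5p (0.26) and miR-210-3p (0.26), the last known as the miRNA induced by low oxygen, against a median of 1.33. They are far less abundant, at 4.41 ± 1.04, 0.419 ± 0.297 and 4.74 ± 1.42 CPM in the adult and 24.2 ± 4.73, 7.45 ± 0.653 and 30.7 ± 4.47 CPM in the neonatal group. All 3 passed the filter on low counts through the neonatal libraries alone (0 adult and 4 neonatal ones each), so a high neonatal level was a condition for being compared. miR-3080-5p had 0 or 1 count in each adult library, and its place depends on the 1 CPM added before taking logs, since its fitted log2 fold change was 3.85 ± 0.50 (SE) against 2.42 for miR-148a-3p. miR-148b-3p itself differed from miR-148a-3p by 1.03 on this measure.

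For miR-148b-3p the closest were miR-185-5p (0.11), miR-17-5p (0.12) and miR-219a-1-3p (0.12), with a median of 0.64 over all others. miR-185-5p stood at 1044 ± 151.5 CPM in adult and 1281 ± 217 CPM in neonatal libraries. It is reported, like the family, to repress Dnmt1.

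For miR-152-3p the closest were miR-199a-3p (0.44), miR-199b-3p (0.49) and miR-143-3p (0.49), with a median of 1.03. The counts of miR-199a-3p and miR-199b-3p kept the same proportion in every library. They were 12.66 and 6.33 in adult library 1, and 52 and 26 in neonatal library 1. These miRNAs are therefore not separate likenesses. miR-199a-3p and miR-143-3p were on the list of stromal miRNAs, those of fibroblasts and smooth muscle. miR-199a-3p stood at 12.6, 9.10, 7.13 and 20.6 CPM in adult libraries 1 to 4 and at 27.7, 22.1, 24.8 and 23.2 CPM in neonatal libraries 1 to 4. Like miR-152-3p, it was lowest in adult library 3 and its adult maximum was in library 4. miR-143-3p was also lowest in adult library 3 (9.51 CPM), but highest among adult libraries in library 2 (43.4 CPM). Both miR-199a-3p and miR-143-3p were picked for likeness to miR-152-3p over these same libraries, so a shared order of libraries is no separate observation. All 6 listed stromal miRNAs were in the table and none was at 0 throughout, and their summed level was 37.1 to 84.0 CPM in adult and 114 to 170 CPM in neonatal libraries. The part of stromal RNA in the values of miR-152-3p was not tested.

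Levels of miRNAs listed for liver and for other cell types were set beside miR-148a-3p. Of the 4 liver miRNAs 3 had counts and miR-122-3p was at 0 in all libraries, and the summed level was 1949 to 2775 CPM in adult and 2714 to 3032 CPM in neonatal libraries. miR-122-5p, the main liver miRNA, was at 286 ± 70.4 CPM in adult and 1200 ± 360 CPM in neonatal libraries (log2 fold change 2.08 ± 0.24, called higher). miR-194-5p was called lower (-0.63 ± 0.19, and -0.01 with library totals, not called), and miR-192-5p did not pass (-0.23 ± 0.24). The ratio of miR-148a-3p to miR-122-5p counts was 2.03, 4.33, 2.59 and 3.83 in adult libraries 1 to 4 and 2.69, 4.15, 3.17 and 7.27 in neonatal ones. These ratios overlapped between the ages. miR-122-5p stood at 390, 245, 262 and 245 CPM in adult libraries 1 to 4. In neonatal libraries 1 to 4 it stood at 1591, 1119, 1346 and 745 CPM. Neonatal libraries 1 and 3 thus held more miR-122-5p than neonatal libraries 2 and 4, the reverse of the order for miR-148a-3p. Adult library 1 was also above adult libraries 2 and 4, while adult library 3 (262 CPM) was close to them (245 and 245 CPM). The part of liver RNA in the values of miR-148a-3p was not tested.

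The other marker lists held calls in both directions, beside 29.1% called higher and 34.1% called lower among all tested miRNAs. Few members of each list were tested. The counts of calls are given as a description, and the cell make-up of the libraries is not read from them. The 5 erythroid miRNAs summed to 120 to 252 CPM in adult and 308 to 775 CPM in neonatal libraries, and all 3 tested ones were called higher. Of these, miR-486a-5p and miR-486b-5p had nearly the same mean levels, so their calls may not be separate. They stood at 72.6 and 76.0 CPM in adult and at 257 and 267 CPM in neonatal libraries. The 2 endothelial miRNAs summed to 46.6 to 77.0 and 125 to 160 CPM, and both were called higher, miR-126a-3p by 1.25 ± 0.20, while miR-126a-5p passed the filter on low counts through the neonatal libraries alone and had to differ. Of the stromal list 3 of 6 were tested and all 3 were called higher. The other 3 were too rare to test, and their mean levels were lower or nearly the same in neonatal libraries, with miR-199a-5p at 3.00 ± 2.57 CPM in adult and 1.19 ± 0.982 CPM in neonatal libraries, miR-145a-5p at 0.669 ± 0.466 and 0.414 ± 0.322 CPM, and miR-214-3p at 2.62 ± 1.77 and 2.71 ± 1.43 CPM. The 2 myeloid miRNAs summed to at most 9.10 CPM in any library. The 8 epithelial miRNAs summed to 3898 to 4523 CPM in adult and 2718 to 3450 CPM in neonatal libraries, with 3 of 6 tested called lower and none higher with TMM, 2 lower and 1 higher with RLE size factors, and 2 lower and 3 higher with library totals. Apart from miR-122-3p, no listed marker was at 0 in all 8 libraries. The part of these cells in the members' values was not tested.

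Other miRNAs known to share targets with the family were called in both directions, as were all tested miRNAs (29.1% higher and 34.1% lower). Nothing about shared targets is read from these counts. Of 7 miRNAs reported to repress DNA methyltransferases, 2 were called higher and 4 lower, with a median log2 fold change of -0.72 beside -0.05 over all tested. The higher ones, miR-126a-3p and miR-143-3p, also stood on the endothelial and stromal lists, and miR-342-3p, called lower, on the T cell list. Their calls are therefore counted in both places. miR-29a-3p, which represses the de novo methyltransferases, was the most abundant of them in adult libraries at 9456 ± 1145 CPM, and stood at 884 ± 368 CPM in neonatal libraries. There miR-342-3p (2936 ± 291 CPM) and miR-185-5p were above it. miR-29c-3p had the lowest fold change (-3.90 ± 0.32), on as few as 2.33 neonatal counts in a library, and passed the filter on low counts through the adult libraries alone, so that it had to differ. The highest was that of miR-126a-3p, and miR-185-5p did not pass (0.29 ± 0.16). With library totals 3 were higher and 3 lower, and with RLE size factors 3 and 4.

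The 13 miRNAs of families reported to repress Bim were mostly members of the miR-17 to miR-92a cluster and its paralogs. Of these 13, 4 were called higher and 3 lower (median 0.06), beside 29.1% and 34.1% of all tested. With library totals 7 were higher and 1 lower, and with RLE size factors 5 and 3. Over all tested miRNAs, library totals gave 186 higher and 68 lower, and RLE size factors 123 and 118. miR-92a-3p was the most abundant, at 114584 ± 28600 CPM in adult and 86242 ± 17351 CPM in neonatal libraries, and its change did not pass (-0.41 ± 0.20, and 0.23 with library totals). The extremes were miR-363-3p (0.78 ± 0.16) and miR-32-5p (-1.24 ± 0.31, not called with library totals).

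The miR-130 and miR-301 list carries the family's seed letters shifted by 1 base. It had 3 tested members of 4, all called higher (also 3 with library totals), beside 29.1% of all tested miRNAs. The RefSeq table did not hold miR-301b-3p, so the shifted letters were not checked for it. For miR-301a-3p and miR-301b-3p the filter on low counts was passed through the neonatal libraries alone (0 adult and 4 neonatal ones), so these 2 had to differ and their calls add nothing to that of miR-130b-3p. miR-130b-3p stood at 63.8 ± 13.3 CPM in adult and 156 ± 29.3 CPM in neonatal libraries (log2 fold change 1.30 ± 0.21), and miR-301a-3p at 2.15 ± 1.73 and 14.7 ± 2.59 CPM. miR-301b-3p had 0 adult counts and a neonatal level of 15.7 ± 3.83 CPM. Set against 3 counts in each adult library, it was at least 7.89-fold higher. miR-130a-3p had at most 6 counts in a library and was not tested. These miRNAs were rare beside miR-148a-3p, the list summing to 154 to 216 CPM in neonatal libraries.

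**Figure D5:**
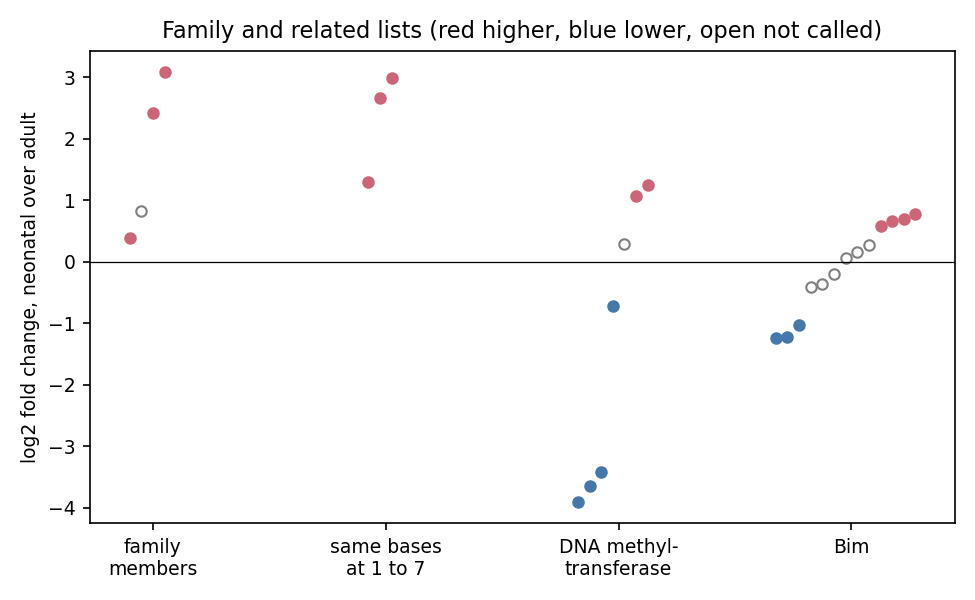
Log2 fold change, neonatal over adult, of the 4 family members and the 3 tested miRNAs of the miR-130 and miR-301 list. Also shown are the lists of miRNAs reported to repress DNA methyltransferases (7) and Bim (13). The miR-130 and miR-301 list is labelled by the same bases at positions 1 to 7. miR-301b-3p is drawn at its lower bound, and its bases were not checked, since the RefSeq table did not hold it. Red points were called higher, blue points lower and open points not called. miR-148a-5p, miR-301a-3p and miR-301b-3p were tested through their neonatal levels alone and had to lie above 0, and miR-29c-3p through its adult levels and had to lie below. The 2 longer lists spread on both sides.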

How the data were processed

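Small RNA libraries had been made from total RNA with the NEBNext kit. The authors deposited estimated counts for each pair of mature miRNA and precursor, without normalization. The build was mm10, per the submitters' processing notes, while aligner, counter and miRNA annotation were not given in the sources used here. All 8 columns were matched to samples by name. Of non-zero values 71.4% were whole within 0.001.

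Counts were summed over precursors and rounded. miRNAs passing edgeR's filterByExpr (minimum count 10, minimum total 15) (375) entered edgeR 4.0.16 under R 4.3.3 (quasi-likelihood F test, TMM, robust, age as the only term, Benjamini-Hochberg at 0.05). SE came from the fold change and F. Shares and ratios of counts used the deposited values, and the log2 arm ratio the rounded values with a pseudocount of 0.5. The code was tested on simulated data.

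Alternatives were RLE scaling, library totals, no or a stricter filter, DESeq2 1.42.0, limma-voom (limma 3.58.1), a replicate block, a GC offset (mature sequences found for 83.7% of tested miRNAs), removal of the 10 most abundant miRNAs, and each library left out. Deviations from group means correlated across miRNAs at r = 0.256 to 0.415 in same-numbered pairs, all above 0.1, and at -0.533 to 0.482 in others. The highest r (0.482) was that of neonatal library 4 with adult library 2, so the check does not single out same-numbered pairs. The main fit left the numbers out. The replicate block and the folds within same-numbered pairs describe only what a pairing by number would give. Members and lists were chosen with earlier results of these data known. Named miRNAs were the members, their other arms, the 3 closest in pattern to each guide, and from the lists the most abundant and the extremes, with others as examples. Matches in untranslated regions were sought for target genes chosen from general knowledge.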

Additional observations from a re-analysis of the deposited data

Results flagged for a closer look

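In adult library 2 the log2 arm ratio of miR-148a was -9.24, below the other 3 adult libraries, which lay between -8.41 and -8.31. It rests on 2 counts of miR-148a-5p. In adult library 3 there were 1016 counts of miR-148b-3p for each count of miR-152-3p, against 173 to 267 in the other adult libraries, and this value rests on 4.5 counts of miR-152-3p. Both were marked because the gap to the next library exceeded Dixon's 95% limit for a group of 4, and 32 groups of 4 libraries were looked at, of which chance marks about 1 in 20.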

How the results depend on the processing

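All 4 members were higher in neonatal libraries under every setting tried. miR-148a-3p also passed the threshold under each of them. So did miR-148a-5p, which says nothing of its stability where a filter admitted it through the neonatal libraries alone. Leaving out 1 library gave log2 fold changes of 2.33 to 2.57 for miR-148a-3p, 2.99 to 3.28 for miR-148a-5p, 0.30 to 0.48 for miR-148b-3p and 0.45 to 1.38 for miR-152-3p. miR-148b-3p lost its call without adult library 1 (0.30) or 3 (0.37). miR-152-3p passed with library totals (1.44), without a filter (0.88), with limma-voom (1.15), with the replicate number as a block (0.90) and without adult library 4 (1.38). With the GC offset and the block together it did not pass (0.80). The block alone changed no other call of a member. The GC offset gave 2.68 for miR-148a-3p and 0.65 for miR-148b-3p, and 2.70 and 0.65 together with the block. With library totals 186 miRNAs were higher and 68 lower, against 109 and 128, while leaving out any 1 library kept both counts within 1.5 times. Over both arms of the hairpins the neonatal share of miR-148a-3p was 58.8%, the sum then holding more arms. Without the 10 most abundant miRNAs in the total the family's share was 2.54% in neonatal and 0.726% in adult libraries, the total being smaller. Where no cause is given, the cause was not tested. Depth limits miR-152-3p and miR-148a-5p, with 4.5 to 30.67 and 2 to 5 adult counts.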
